A study of Mus musculus with 9 samples.

Results

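Expression of 10 genes of prostanoid and leukotriene synthesis and reception was compared in sorted lung macrophages of the mouse. They were taken by symbol from the 24346 gene symbols of the expression tables, by a rule that uses no measured value: Ptgs1, Ptgs2, Ptges, Ptgir, Ptger2, Ptger4, Alox5, Alox5ap, Ltc4s and Alox15. The list itself was chosen with earlier results of these data known. All samples came from C57BL/6 mice at postnatal week 10, and the study's methods describe its mice as adult wild-type females for this experiment. In the orthotopic model, Lewis lung carcinoma (LLC) cells, a lung cancer line derived from the same strain and here expressing tdTomato, were injected into the left lung. The tumor cells were injected in phosphate-buffered saline with Matrigel. For control mice the study names only the saline as vehicle and does not say whether they received Matrigel. CD45+ autofluorescent cells were sorted from digested, unperfused lungs, and Siglec-F separated alveolar macrophages (AMs, Siglec-F+) from tumor-associated macrophages (TAMs, Siglec-F-). The samples formed 3 groups of 3. Ctrl-AM came from vehicle-treated mice, and mice with LLC tumors gave both Tumor-AM (their AMs) and Tumor-macrophage (their TAMs). The study states that its control and experimental mice were bred apart. Breeding and tumor therefore cannot be separated in comparisons with Ctrl-AM. One transplanted line stood for lung cancer, and the gates, not a genetic marker, defined the populations.

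Prostanoids and leukotrienes are lipid mediators made from arachidonic acid, which phospholipases release from membranes. Cyclooxygenases turn it into prostaglandin H, from which terminal synthases make the prostaglandins, prostacyclin and thromboxane, and 5-lipoxygenase with its activating protein turns it into leukotriene A, the precursor of leukotriene B and of the cysteinyl leukotrienes. Lung macrophages are a classical source of both families. The prostacyclin receptor and the prostaglandin E receptors EP2 and EP4 raise cyclic AMP, which dampens many macrophage responses.

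Promoters are shown first for 4 genes on which the comparisons turn. RefSeq promoter windows (GRCm38.p6) were matched by symbol for 8 of the 10 genes. For these 4, the 250 bases before the annotated start are printed 5′ to 3′ on the gene's own strand, with the matches to the searched motifs in capitals. Ptgs1 (chr2:36230176-36230425, plus strand) and Ptgir (chr7:16906240-16906489, plus) were higher in Tumor-AM than Ctrl-AM under every setting tried, Ptgs2 (chr1:150099781-150100030, plus) was highest in Tumor-macrophage, and Alox5 (chr6:116461179-116461428, minus) was lowest there.
Ptgs1: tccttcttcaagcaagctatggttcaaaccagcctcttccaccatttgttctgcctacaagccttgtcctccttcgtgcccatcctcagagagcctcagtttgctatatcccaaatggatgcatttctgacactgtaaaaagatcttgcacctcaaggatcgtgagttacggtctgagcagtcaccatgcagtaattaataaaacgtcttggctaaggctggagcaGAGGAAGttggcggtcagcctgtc
Ptgir: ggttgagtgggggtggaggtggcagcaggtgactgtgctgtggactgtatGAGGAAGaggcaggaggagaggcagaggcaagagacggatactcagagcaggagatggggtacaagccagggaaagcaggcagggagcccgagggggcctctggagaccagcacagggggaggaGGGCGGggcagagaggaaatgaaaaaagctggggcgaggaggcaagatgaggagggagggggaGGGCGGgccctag
Ptgs2: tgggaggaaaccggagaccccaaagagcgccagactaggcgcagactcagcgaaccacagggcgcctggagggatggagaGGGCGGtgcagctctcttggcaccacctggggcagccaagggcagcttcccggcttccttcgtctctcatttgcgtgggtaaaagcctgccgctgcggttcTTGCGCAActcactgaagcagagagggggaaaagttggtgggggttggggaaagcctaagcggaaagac
Alox5: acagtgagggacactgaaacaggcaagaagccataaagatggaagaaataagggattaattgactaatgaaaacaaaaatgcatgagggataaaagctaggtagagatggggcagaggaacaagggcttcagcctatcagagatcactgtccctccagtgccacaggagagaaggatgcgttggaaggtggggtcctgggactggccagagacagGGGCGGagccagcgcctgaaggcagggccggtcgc

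The motifs searched on both strands, over the 250 bases before and 50 bases after the start, were the core of the cyclic AMP response element, CGTCA, the E-box CACGTG, the C/EBP site TTGCNNAA, the PU.1 core GAGGAAG, the AP-1 site TGANTCA, the GC box GGGCGG and the TATA box TATAAA. Ptgs1 held the PU.1 core once, starting 24 bases before the start, and Ptgir held it once, 200 bases before the start, and 13.6% of all 32851 promoters of that length hold it. The Ptgs2 window held the C/EBP site 69 bases before the start, and CGTCA and CACGTG, which share 2 bases, 14 and 17 bases after it. These 3 motifs were found in 10.8%, 20.8% and 7.15% of all promoters. The GC box, present in 35.7% of promoters, was found in Ptgs2, Ptgir and Alox5, with 1 match in Alox5, 35 bases before the start. The TATA and AP-1 letters were not in these 4 windows. These matches describe the sequence and were not tested as binding sites.

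Depth was similar in the 9 samples, with an estimated 10200000 to 12800000 reads each and between 9876 and 10187 genes at 1 FPKM or more (fragments per kilobase of transcript, scaled to mapped fragments). The sorting marker Siglecf was 163.971 to 209.025 FPKM in the 6 AM samples and 0.456 to 0.835 FPKM in Tumor-macrophage, where all 5 of 5 AM markers were lower and all 4 of 4 TAM markers (Ccr2, Cx3cr1, Tgfb3, Ly6c2) higher, relative to Tumor-AM. Marker lists of other cells were also summed. Mast cell and basophil markers summed to 2.96, 36.6 and 11.4 FPKM in the 3 Tumor-macrophage samples and to 1.36 or less in every AM sample. Eosinophil markers did not exceed 0.215 FPKM in AM samples or 1.35 FPKM in Tumor-macrophage. Neutrophil markers, of which 7 of 8 were used, had sums of 146 to 173 FPKM for Ctrl-AM, 150 to 214 for Tumor-AM and 95.8 to 145 for Tumor-macrophage. Lymphocyte markers had sums of 10.9 to 15.2 FPKM for Ctrl-AM, 4.03 to 9.09 for Tumor-AM and 19.9 to 40.6 for Tumor-macrophage, where 4 of 5 tested were higher than in Tumor-AM. Dendritic cell markers summed to 15.2 to 17.9, 7.48 to 14.6 and 25.0 to 56.4 FPKM in the same order, with 3 of 5 tested higher in Tumor-macrophage. Epithelial sums were 48.7 to 199, 28.6 to 80.7 and 19.1 to 68.9 FPKM. Fibroblast and endothelial sums were 5.58 to 8.22, 5.44 to 28.2 and 7.86 to 11.8 FPKM. Of these markers 3 were tested, and Col3a1 was higher in Tumor-AM (3.47 to 21.0 FPKM) than Ctrl-AM (0.608 to 1.51 FPKM). Its log2 change was 1.99 (limma adjusted p = 0.0272). The other 2 did not pass, and the median log2 change of the 3 was -0.31. The part of RNA from these other cells in the results was not tested. Since populations were measured in bulk, fewer cells with an RNA and less of that RNA per cell cannot be told apart.

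**Figure D1:**
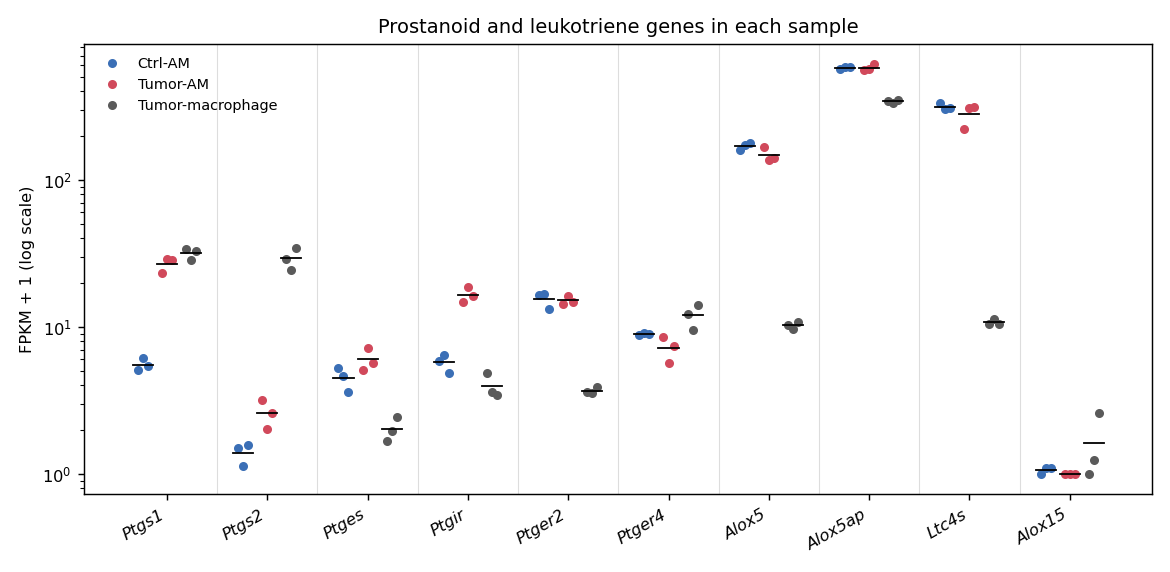
FPKM + 1 of the 10 genes (log axis) in each of the 9 samples, with points for samples and black lines for group means of 3. Tumor-AM exceeded Ctrl-AM in Ptgs1 and Ptgir, while Ptges, Ptgir, Ptger2, Alox5, Alox5ap and Ltc4s were below Tumor-AM in Tumor-macrophage.

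The tumor-bearing lung was accompanied in AMs by higher Ptgs1, Ptgir and Ptgs2 RNA, while Alox5, Alox5ap and Ltc4s did not pass the test. Of the 10 genes, 9 passed the filter on low values and were tested with limma, and Alox15 did not. In Tumor-AM against Ctrl-AM, 3 of the 9 were higher, 0 were lower and 6 did not pass the threshold, where 10.3% of all 10686 genes tested passed (7.11% higher and 3.18% lower). The median log2 change of the 9 genes was 0.00156, against 0.0142 over all genes tested. Values of the groups did not overlap for 4 of the 9 genes, against 32.3% of all genes.

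TAMs differed from AMs of the same model in nearly every one of these genes. In Tumor-macrophage against Tumor-AM, 2 of the 9 genes were higher, 6 were lower and 1 did not pass, where 48.6% of all genes passed (24.2% higher and 24.4% lower). Their median log2 change was -1.56, against 0.00117 over all genes, and 8 of the 9 did not overlap, against 55.3% of all genes. In Tumor-macrophage against Ctrl-AM, 2 were higher and 6 lower, where 54.8% of all genes passed (27.7% higher and 27.1% lower). The median change was then -0.75 against -0.00824 over all genes, and 9 of the 9 did not overlap, against 62.3%. Without any single sample, Tumor-macrophage 2 with its mast cell markers included, the counts against Tumor-AM were again 2 higher and 6 lower. The 3 comparisons share their samples, so they are not independent of each other. The study gives the replicates of each population as mice, without saying whether both tumor populations came from the same animals. The labels name no mouse and do not say so either.

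**Figure D2:**
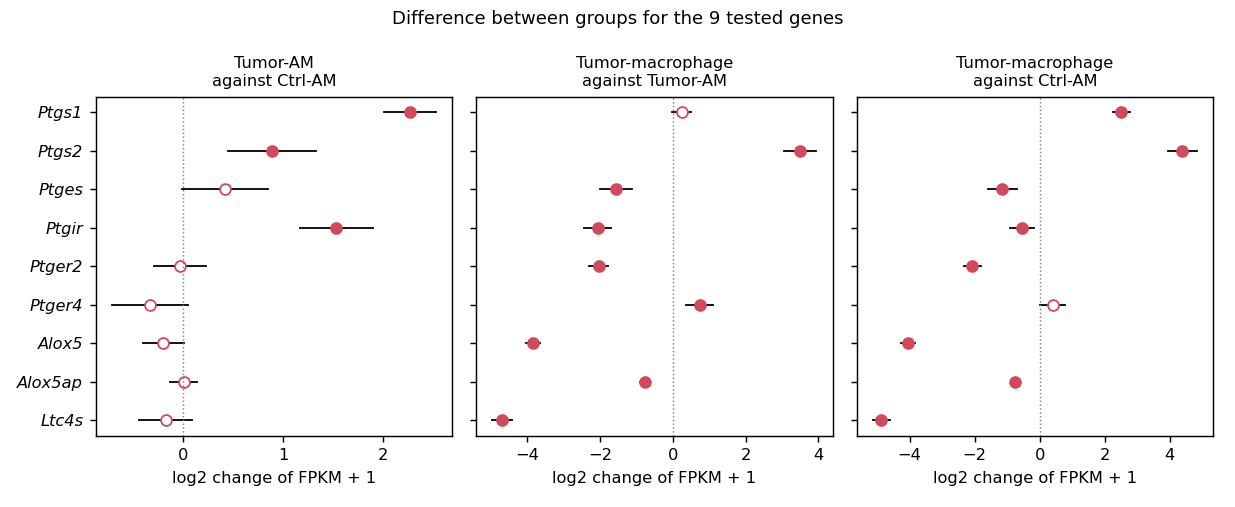
Log2 change of FPKM + 1 with its 95% confidence interval for the 9 tested genes in 3 comparisons. Filled points passed the limma threshold (adjusted p under 0.05) and open points did not. In the left panel 3 filled points lie right of 0, and in the middle panel 6 lie left of 0.

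Ptgs1 encodes cyclooxygenase-1, the constitutive isoform of most tissues (GRCm38, chromosome 2, 36230426 to 36252272, plus strand, 11 exons). It was 4.07, 5.10 and 4.46 FPKM in Ctrl-AM, 22.2, 28.0 and 27.3 FPKM in Tumor-AM, and 32.6, 27.4 and 31.8 FPKM in Tumor-macrophage. All 3 Tumor-AM samples lay above all Ctrl-AM samples, and 1 of them, Tumor-AM 2, lay within the range of Tumor-macrophage. The mean rose 5.68-fold, from 4.54 ± 0.519 to 25.8 ± 3.16 FPKM (mean ± SD of 3 samples here and below). The log2 change was 2.27 ± 0.12 (SE, limma adjusted p = 1.20e-05). Tumor-macrophage and Tumor-AM, at means of 30.6 ± 2.79 and 25.8 ± 3.16 FPKM, did not differ past the threshold (log2 change 0.24, 95% confidence interval -0.02 to 0.50, limma adjusted p = 0.116). Platelets are rich in this enzyme, and 6 platelet markers had overlapping sums in Ctrl-AM (4.44 to 7.86 FPKM) and Tumor-AM (4.97 to 8.92 FPKM). They summed to 290.3 to 588.7 FPKM in Tumor-macrophage, where Pf4 alone gave 289.6 to 583.2 FPKM and Itga2b was 0 in all 3 samples. Fitted without the filter on low values, Ppbp had a log2 change of 1.40 against Tumor-AM (limma adjusted p = 0.0578). The changes of Gp9, Itga2b, Gp1bb and Treml1 were -0.06, -0.05, 0.006 and 0.09. The part of platelet RNA in the Ptgs1 levels was not tested. The gene shared 148 exon bases with an opposite-strand gene that was not in the tables, and reads of such pairs cannot be told apart without strand.

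Ptgs2 encodes cyclooxygenase-2, the inducible isoform (chromosome 1, 150100031 to 150108227, plus strand, 10 exons). It was 0.496, 0.127 and 0.562 FPKM in Ctrl-AM, 2.17, 1.03 and 1.58 FPKM in Tumor-AM, and 28.2, 23.3 and 33.5 FPKM in Tumor-macrophage. The 3 groups did not overlap, and Tumor-macrophage stood far above both AM groups. Its mean in Tumor-macrophage, 28.3 ± 5.11 FPKM, was 17.8-fold that of Tumor-AM, 1.59 ± 0.571 FPKM (log2 change 3.51 ± 0.20, SE, limma adjusted p = 1.56e-07). Against Ctrl-AM, at 0.395 ± 0.235 FPKM, Tumor-AM had a log2 change of 0.89 with an SE of 0.20 (limma adjusted p = 0.0204). This smaller difference rests on few reads, about 25, 7.2 and 32 in the Ctrl-AM samples. It lost the call without a filter on low values (limma adjusted p = 0.0619), without Ctrl-AM 2 (log2 change 0.74, limma adjusted p = 0.0713), without Tumor-AM 1 (0.73, limma adjusted p = 0.0650) and without Tumor-AM 3 (0.88, limma adjusted p = 0.0607). With a pseudocount of 0.1 in place of 1 the change was 1.86. Ptgs2 is also an early-response gene, and the 12 other early-response genes that tissue dissociation can raise had sums of 1942 to 2325 FPKM for Ctrl-AM, 2487 to 3263 for Tumor-AM and 2554 to 3509 for Tumor-macrophage. Of these 12 genes, 4 passed upward and 0 downward from Ctrl-AM to Tumor-AM, and from Tumor-AM to Tumor-macrophage 4 were higher and 3 lower. Their part in the Ptgs2 result was not tested.

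The summed cyclooxygenase RNA stood at a different level in each of the 3 populations, whereas its composition stood apart in Tumor-macrophage. Both genes together gave 4.57 to 5.23 FPKM in Ctrl-AM, 24.4 to 29.0 FPKM in Tumor-AM and 50.7 to 65.3 FPKM in Tumor-macrophage, with no overlap. Ptgs2 made up 10.9%, 2.43% and 11.2% of this sum in Ctrl-AM. Its share was 8.93%, 3.56% and 5.46% for the Tumor-AM samples, against 46.3%, 45.9% and 51.3% for Tumor-macrophage. The larger sum of Tumor-AM was thus almost wholly Ptgs1, and the share of Ptgs2 in both AM groups overlapped. With 3 samples a group, an exact permutation test of these shares cannot go below p = 0.1, and none was run.

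**Figure D3:**
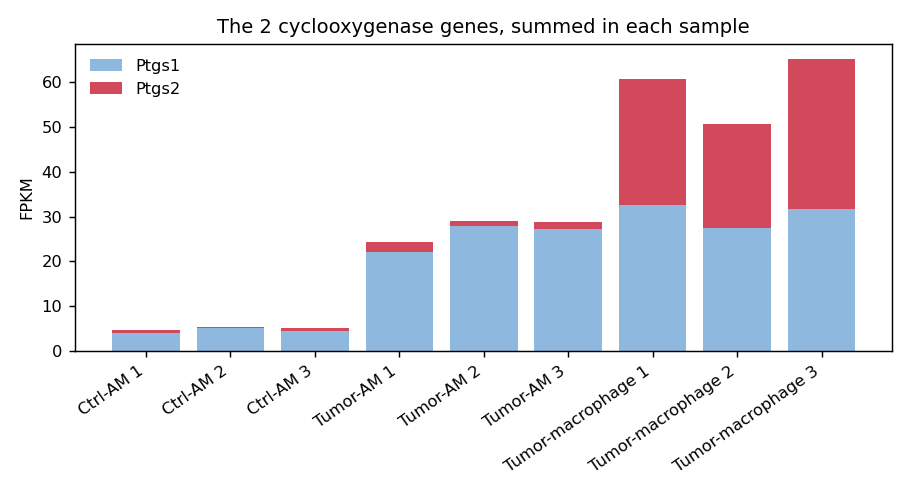
Stacked bars of Ptgs1 (blue) and Ptgs2 (red) FPKM in each of the 9 samples, on an axis from 0. Ptgs2 is a thin layer in the 6 AM samples and 45.9% to 51.3% of the bar in Tumor-macrophage.

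Ptges encodes the inducible microsomal synthase that makes prostaglandin E from the cyclooxygenase product (chromosome 2, 30889471 to 30929863, minus strand). Its values were 4.21, 3.65 and 2.61 FPKM in Ctrl-AM, 4.07, 6.21 and 4.71 FPKM in Tumor-AM, and 0.679, 0.966 and 1.44 FPKM in Tumor-macrophage. The AM groups overlapped, and all Tumor-macrophage samples were below them. Tumor-AM exceeded Tumor-macrophage 4.85-fold in the mean (4.999 ± 1.10 against 1.03 ± 0.386 FPKM; log2 change -1.56 ± 0.19, SE, limma adjusted p = 6.59e-05). Ptges was thus lowest in the population in which Ptgs2 was highest. Between Tumor-AM and Ctrl-AM the log2 change of 0.42 had a 95% confidence interval of -0.01 to 0.85 and did not pass (limma adjusted p = 0.219). Other prostaglandin E synthase genes were more abundant than Ptges within Tumor-macrophage, but were not higher there than in Tumor-AM. Ptges3 was 131 ± 12.6 FPKM in Tumor-AM and 117 ± 14.6 FPKM in Tumor-macrophage and did not pass. Ptges2 was 16.5 ± 2.34 and 9.61 ± 1.07 FPKM (log2 change -0.72, limma adjusted p = 7.42e-04).

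Among the receptors, Ptgir and Ptger2 were lower in TAMs than in AMs of the same model, and Ptger4 was higher. Ptgir encodes the prostacyclin receptor (chromosome 7, 16906490 to 16910905, plus strand). It was 4.90, 5.45 and 3.88 FPKM in Ctrl-AM, 13.7, 17.8 and 15.2 FPKM in Tumor-AM, and 3.88, 2.60 and 2.46 FPKM in Tumor-macrophage. Tumor-AM was above both other groups in every sample, whereas the lowest Ctrl-AM and the highest Tumor-macrophage sample nearly coincided. The mean rose 3.28-fold from Ctrl-AM to Tumor-AM, from 4.74 ± 0.797 to 15.6 ± 2.09 FPKM (log2 change 1.53 ± 0.16, SE, limma adjusted p = 5.06e-04), and Tumor-macrophage was 5.22-fold below Tumor-AM (2.98 ± 0.781 FPKM; log2 change -2.07 ± 0.16, SE, limma adjusted p = 2.11e-06). Ptgir was the 1 gene of the 9 for which Tumor-AM passed above both other groups, a pattern that 172 of the 10686 genes (1.61%) showed. Tumor-macrophage and Ctrl-AM differed less (log2 change -0.54, limma adjusted p = 0.0180). Its call was lost without Ctrl-AM 1 (-0.51), Ctrl-AM 2 (-0.45), Tumor-macrophage 2 (-0.47) or Tumor-macrophage 3 (-0.45), with limma adjusted p up to 0.0698.

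Ptger2 encodes EP2, a prostaglandin E receptor that couples to cyclic AMP (chromosome 14, 44988195 to 45003820, plus strand). It shares 246 exon bases with Gm17173 and 144 with Gm49364, both on the opposite strand and without values in these data. Ptger2 was 15.6, 15.8 and 12.3 FPKM in Ctrl-AM, 13.3, 15.3 and 13.8 FPKM in Tumor-AM, and 2.60, 2.53 and 2.90 FPKM in Tumor-macrophage. The AM groups overlapped and differed by a log2 change of -0.04 (95% confidence interval -0.30 to 0.22, limma adjusted p = 0.893). Tumor-macrophage was 5.28-fold below Tumor-AM (2.68 ± 0.198 against 14.1 ± 1.03 FPKM; log2 change -2.04 ± 0.12, SE, limma adjusted p = 1.65e-07).

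Ptger4 encodes EP4, the other cyclic AMP-coupled prostaglandin E receptor (chromosome 15, 5206661 to 5244187, minus strand). It was 7.86, 8.13 and 7.97 FPKM in Ctrl-AM, 7.55, 4.69 and 6.40 FPKM in Tumor-AM, and 11.2, 8.58 and 13.1 FPKM in Tumor-macrophage. Tumor-macrophage was the highest group, in contrast to Ptger2. It exceeded Tumor-AM 1.77-fold (10.99 ± 2.29 against 6.21 ± 1.43 FPKM; log2 change 0.73 ± 0.17, SE, limma adjusted p = 0.00458). Neither Tumor-AM (log2 change -0.34, limma adjusted p = 0.259) nor Tumor-macrophage (0.40, limma adjusted p = 0.0712) differed from Ctrl-AM past the threshold. The latter passed without Tumor-macrophage 2 (0.55, limma adjusted p = 0.0188), without Tumor-AM 2 (0.40, limma adjusted p = 0.0401), with the replicate number as a block (limma adjusted p = 0.0483) and with only both compared groups in the fit (limma adjusted p = 0.0467). The lowest of the 3 Tumor-macrophage values was that of Tumor-macrophage 2, which also had the lowest lymphocyte (19.9 FPKM) and dendritic cell (25.0 FPKM) marker sums of its group, and their part in the Ptger4 result was not tested. Ptger4 shares 1015 exon bases with the opposite-strand gene Gm15937, which was not in the tables, and 82 with Ttc33, also on the opposite strand, which was 8.80 to 18.1 FPKM.

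The order of the 3 receptors differed from population to population. In Ctrl-AM the means were 14.6 ± 1.98 FPKM for Ptger2, 7.99 ± 0.136 for Ptger4 and 4.74 ± 0.797 for Ptgir. In Tumor-AM, Ptgir (15.6 ± 2.09 FPKM) and Ptger2 (14.1 ± 1.03) were within each other's spread and Ptger4 was lowest. In Tumor-macrophage, Ptger4 (10.99 ± 2.29 FPKM) was above Ptgir and Ptger2, which were within each other's spread. FPKM is per length, so that these levels can be set side by side, but genes were not tested against each other.

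The leukotriene genes were among the most abundant RNAs of AMs. Alox5 encodes 5-lipoxygenase, which makes leukotriene A (chromosome 6, 116410077 to 116461178, minus strand, 14 exons). It was 158, 173 and 176 FPKM in Ctrl-AM, 167, 135 and 139 FPKM in Tumor-AM, and 9.22, 8.72 and 9.85 FPKM in Tumor-macrophage. The AM groups overlapped, and their log2 change of -0.20 did not pass (95% confidence interval -0.41 to 0.00, limma adjusted p = 0.207). Tumor-macrophage was 15.9-fold below Tumor-AM (9.26 ± 0.567 against 147 ± 17.1 FPKM; log2 change -3.85 ± 0.09, SE, limma adjusted p = 3.20e-10).

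Ltc4s encodes leukotriene C4 synthase, which conjugates leukotriene A to glutathione and so opens the cysteinyl leukotriene branch (chromosome 11, 50236461 to 50238616, minus strand, 5 exons). It was 330, 303 and 308 FPKM in Ctrl-AM, 221, 308 and 313 FPKM in Tumor-AM, and 9.46, 10.4 and 9.49 FPKM in Tumor-macrophage. Tumor-AM 1 was below the other AM samples, which lay close together. The log2 change between the AM groups was -0.18 (95% confidence interval -0.45 to 0.09, limma adjusted p = 0.411). Ltc4s had the largest difference of the 9 genes between Tumor-macrophage and Tumor-AM, 28.7-fold lower (9.77 ± 0.513 against 281 ± 51.5 FPKM; log2 change -4.69 ± 0.12, SE, limma adjusted p = 4.99e-10). The gene shares 268 exon bases with the opposite-strand gene Gm26542, which was not in the tables.

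Alox5ap encodes FLAP, the membrane protein that presents arachidonic acid to 5-lipoxygenase (chromosome 5, 149264767 to 149288153, plus strand, 5 exons). It shares 189 exon bases with Gm19719, which lies on the opposite strand and has no values in these data. Alox5ap was 563, 585 and 581 FPKM in Ctrl-AM, 556, 568 and 608 FPKM in Tumor-AM, and 341, 335 and 350 FPKM in Tumor-macrophage. The AM groups overlapped (log2 change 0.00, 95% confidence interval -0.14 to 0.14, limma adjusted p = 0.991). Tumor-macrophage was lower, but only 1.69-fold (342 ± 7.52 against 577 ± 27.5 FPKM; log2 change -0.75 ± 0.06, SE, limma adjusted p = 2.54e-06). Alox5ap thus stood at percentile 97.2 of the tested genes in Tumor-macrophage and 98.7 in Tumor-AM. Alox5 stood at 48.8 and 93.8, and Ltc4s at 50.0 and 96.7, in the same order. Tumor-macrophage had 59.2% of the Tumor-AM level of Alox5ap, 6.30% of Alox5 and 3.48% of Ltc4s, beside 0.380% of Siglecf. The eosinophil markers named above, which mark another Siglec-F+ cell that makes leukotrienes, were at most 0.215 FPKM in the AM samples, with Prg2 and Epx at 0 in all 6.

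Alox15 encodes the 12/15-lipoxygenase, which mouse resident peritoneal macrophages and eosinophils express (chromosome 11, 70344152 to 70352031, minus strand). It was 0, 0.0970 and 0.0971 FPKM in Ctrl-AM, 0 FPKM in all Tumor-AM samples, and 0, 0.238 and 1.598 FPKM in Tumor-macrophage. It was therefore at or near 0 in all but 1 sample, Tumor-macrophage 3, and the groups overlapped. Fitted without the filter, the log2 change between Tumor-macrophage and Tumor-AM was 0.56 (limma adjusted p = 0.212).

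The other genes of these pathways were followed in a list of 50, of which 28 passed the filter. In Tumor-AM against Ctrl-AM, 7 were higher, 1 was lower and 20 did not pass, beside 7.11% and 3.18% of all genes, and their median log2 change was 0.11 against 0.0142 over all genes. In Tumor-macrophage against Tumor-AM, 9 were higher, 15 lower and 4 did not pass, beside 24.2% and 24.4% of all genes, and the median was -0.43 against 0.00117. In Tumor-macrophage against Ctrl-AM 10 were higher, 11 lower and 7 did not pass, beside 27.7% and 27.1%, and the median was -0.06 against -0.00824. The counts in Tumor-AM against Ctrl-AM were 4 higher and 1 lower after rescaling to TPM (the same sum of FPKM in every sample) and after quantile normalization, and 4 higher and 0 lower without a filter, without Ctrl-AM 1 and without Tumor-AM 2.

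Upstream, 7 of the 12 genes of arachidonic acid release and platelet-activating factor passed the filter. In Tumor-AM against Ctrl-AM, 2 of the 7, Pla2g7 and Lpcat2, were higher and 0 lower, beside 7.11% and 3.18% of all genes. The median log2 change was 0.22, against 0.0142 over all genes. In Tumor-macrophage against Tumor-AM, 3 were higher and 3 lower, beside 24.2% and 24.4% of all genes. The median was -0.25, against 0.00117 over all genes. The lower genes encode the phospholipases Pla2g15 (-1.13, limma adjusted p = 1.97e-05), Pla2g6 (-1.09, limma adjusted p = 0.00111) and Pla2g12a (-0.49, limma adjusted p = 0.0419, lost under 8 of 18 alternative settings), and the third higher gene was the secreted phospholipase Pla2g2d (1.19, limma adjusted p = 0.00137). Pla2g7, which encodes the secreted hydrolase of platelet-activating factor, was 5.34, 7.15 and 4.68 FPKM in Ctrl-AM, 15.4, 33.5 and 23.3 FPKM in Tumor-AM, and 648, 629 and 672 FPKM in Tumor-macrophage. Its log2 change was 1.85 ± 0.23 (SE, limma adjusted p = 0.00101) in Tumor-AM against Ctrl-AM. In Tumor-macrophage against Tumor-AM it was 4.76 ± 0.23 (SE, limma adjusted p = 4.41e-08). Lpcat2, which makes platelet-activating factor, went in the same order with means of 5.28 ± 1.10, 20.01 ± 2.60 and 185 ± 27.4 FPKM (1.75, limma adjusted p = 1.94e-04; 3.14, limma adjusted p = 4.69e-08). Pla2g4a, the cytosolic phospholipase that releases arachidonic acid, was 22.0 ± 1.44, 24.6 ± 3.33 and 20.5 ± 1.42 FPKM and passed in none of the 3 comparisons.

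Of the other prostanoid synthases, Hpgds, the hematopoietic prostaglandin D synthase, had its groups in the order of Ptgs2. It was 1.98, 2.22 and 1.92 FPKM in Ctrl-AM, 3.47, 4.93 and 3.31 FPKM in Tumor-AM, and 47.9, 42.7 and 46.0 FPKM in Tumor-macrophage (0.68, limma adjusted p = 0.00960; 3.26, limma adjusted p = 1.29e-08). Mast cells express Hpgds and Ptgs1, and the mast cell and basophil markers summed to 2.96, 36.6 and 11.4 FPKM in those 3 samples. The part of mast cell RNA in the levels of both genes was not tested. Tbxas1, thromboxane synthase, was 127 ± 10.6, 165 ± 9.53 and 126 ± 17.0 FPKM. In Tumor-AM it exceeded Ctrl-AM (0.38, limma adjusted p = 0.0424) and Tumor-macrophage (-0.40 for the latter against Tumor-AM, limma adjusted p = 0.00835). Akr1b3, which has prostaglandin F synthase activity, showed the same order (16.1 ± 2.41, 22.8 ± 3.44 and 15.9 ± 0.199 FPKM; 0.48, limma adjusted p = 0.0414; -0.48, limma adjusted p = 0.00931). Ptgis, the prostacyclin synthase whose product Ptgir binds, averaged 0.157 FPKM or less in every group and did not pass the filter.

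Ptgr1, which inactivates leukotriene B and prostaglandin metabolites, was 2.13-fold higher in Tumor-AM, from 12.0 ± 1.52 to 25.6 ± 3.31 FPKM (1.03, limma adjusted p = 0.00121), and was 15.8 ± 1.82 FPKM in Tumor-macrophage. Abcc1, an exporter of leukotriene C, was 7.07 ± 0.794, 10.5 ± 1.82 and 12.1 ± 1.08 FPKM (0.51 between the AM groups, limma adjusted p = 0.0399). Mgst3, a microsomal glutathione transferase, was the 1 gene of the list that was lower in Tumor-AM, at 337 ± 30.8 against 412 ± 12.6 FPKM (-0.29, limma adjusted p = 0.0441). Of these 8 differences between the AM groups, those of Pla2g7, Lpcat2, Hpgds and Ptgr1 passed under all 18 alternative settings. Those of Tbxas1, Akr1b3, Abcc1 and Mgst3 passed under 9, 6, 8 and 9 of them, with adjusted p up to 0.149, 0.139, 0.138 and 0.152 (limma).

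Downstream of 5-lipoxygenase, 5 of 6 tested leukotriene enzyme and export genes were lower in Tumor-macrophage than Tumor-AM and 0 higher, and both tested leukotriene receptors were higher. Of all genes, 24.4% were lower and 24.2% higher in this comparison. Lta4h, which makes leukotriene B, was 88.8 ± 4.45, 88.5 ± 5.88 and 34.8 ± 1.47 FPKM (-1.32 between Tumor-macrophage and Tumor-AM, limma adjusted p = 1.52e-07). Mgst2, a second leukotriene C synthase, was 17.9, 30.8 and 31.8 FPKM in Tumor-AM and 2.36, 0.919 and 0.631 FPKM in Tumor-macrophage (-3.62, limma adjusted p = 1.79e-06), and Mgst3 was 62.5 ± 3.79 FPKM there (-2.41, limma adjusted p = 3.04e-09). Dpep2 was 154 ± 2.57 FPKM in Tumor-AM and 112 ± 7.20 FPKM in Tumor-macrophage (-0.46, limma adjusted p = 1.55e-04). Ggt5 was 2.32 ± 0.619 and 1.19 ± 0.463 FPKM (-0.60, limma adjusted p = 0.0226), and its call was lost under 4 of 17 alternatives. Abcc1 was the 1 gene of the 6 that did not pass. Cysltr1, a cysteinyl leukotriene receptor, was 1.75, 1.01 and 2.34 FPKM in Tumor-AM and 15.4, 20.4 and 20.2 FPKM in Tumor-macrophage (2.88, limma adjusted p = 3.54e-07). Ltb4r1, the high-affinity leukotriene B receptor, was 1.02, 0.741 and 0.616 FPKM against 4.48, 16.3 and 3.99 FPKM (2.13, limma adjusted p = 9.76e-04), with 1 sample, Tumor-macrophage 2, far above the others. Its log2 change lay between 1.55 and 2.94 over 17 alternatives.

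Among the oxylipin genes, Fpr2, a receptor that binds lipoxin and formyl peptides, was 67.9 ± 8.27 FPKM in Tumor-AM and 8.56 ± 3.11 FPKM in Tumor-macrophage (-2.89, limma adjusted p = 4.12e-07). Aloxe3, an epidermal-type lipoxygenase, was 6.34 ± 0.512 FPKM in Tumor-AM and 0, 0.375 and 0.103 FPKM in Tumor-macrophage (-2.67, limma adjusted p = 1.08e-07). Cmklr1, the chemerin receptor, which also binds resolvin E, was at most 0.189 FPKM in any AM sample and 6.16, 5.70 and 7.17 FPKM in Tumor-macrophage (2.76, limma adjusted p = 5.00e-08). None of these 3 genes passed between the AM groups.

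**Figure D4:**
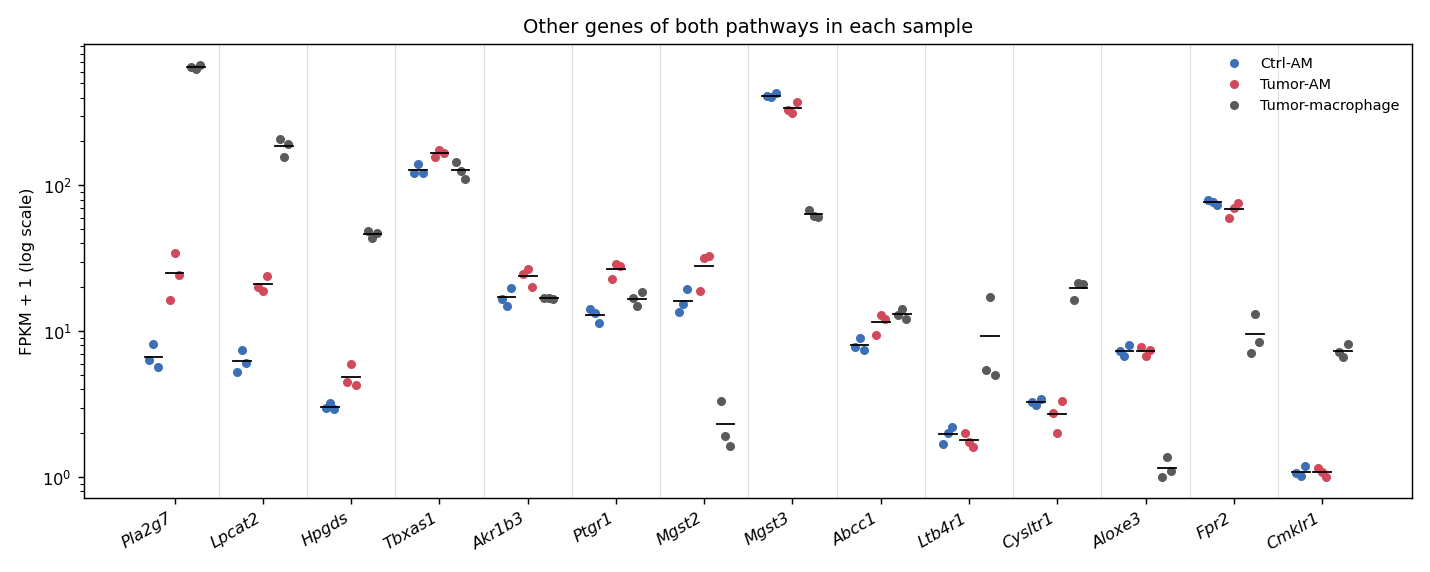
FPKM + 1 (log axis) of the 14 other pathway genes named by the rule, in each of the 9 samples, with points for samples and black lines for group means. Pla2g7, Lpcat2, Hpgds, Cysltr1 and Cmklr1 were highest in Tumor-macrophage, and Mgst2, Mgst3, Aloxe3 and Fpr2 were lowest there.

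Because TAM markers were also higher in Tumor-AM (sums of 11.7 to 14.3 FPKM, against 6.58 to 8.35 in Ctrl-AM and 149 to 193 in Tumor-macrophage; 2 of 4 markers past the threshold), the level of each gene in Tumor-AM was expressed as a percentage of its Tumor-macrophage mean. The marker sum stood at 7.49%. Pla2g7 at 3.71%, Ptgs2 at 5.63%, Hpgds at 8.57% and Lpcat2 at 10.8% were near that value. Ptgs1 at 84.3%, Abcc1 at 87.4%, Tbxas1 at 131%, Akr1b3 at 143%, Ptgr1 at 162% and Ptgir at 522% were far above it. In Ctrl-AM, however, Abcc1, Tbxas1, Akr1b3, Ptgr1 and Ptgir already had means of 7.07, 127, 16.1, 12.0 and 4.74 FPKM. Their Tumor-macrophage means were 12.1, 126, 15.9, 15.8 and 2.98 FPKM. At the Ctrl-AM level alone they would stand far above the marker value, so their percentages cannot show the part of carried-over TAM RNA. Seen as a share of the gap between Ctrl-AM and Tumor-macrophage, Tumor-AM stood at 81.5% for Ptgs1, 4.29% for Ptgs2 and 3.33% for the marker sum. For the summed early-response genes that tissue dissociation can raise, Tumor-AM stood at 77.8% of the gap and 93.0% of the Tumor-macrophage mean. The part of such a response in the Ptgs1 result was not tested. The part of carried-over TAM RNA in the Tumor-AM levels of these pathway genes, near the marker value or far above it, was not tested.

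**Figure D5:**
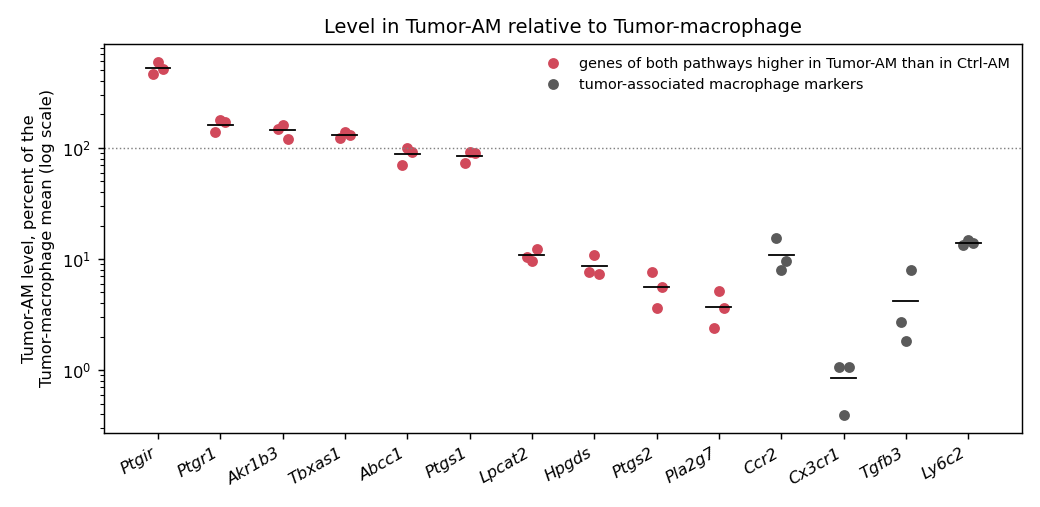
Level in each Tumor-AM sample as a percentage of the Tumor-macrophage mean (log axis), with black lines for means. Red points are the 10 genes of both pathways that passed upward from Ctrl-AM to Tumor-AM, from Ptgir (522%) to Pla2g7 (3.71%), and grey points are the 4 TAM markers, from 0.844% (Cx3cr1) to 14.0% (Ly6c2).

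The genes with the most similar pattern over the 9 samples, by Pearson correlation of log2(FPKM + 1), were listed for each tested gene. Since the samples form 3 groups, these values mostly describe the order of the group levels. For Ptgs1 they were Ier3 (r = 0.993), itself on the list of early-response genes and higher in Tumor-AM by 2.02 on the log2 scale (limma adjusted p = 1.22e-06), and Slc22a4 (0.984), and for Ptgs2 Extl3 and Gpr132 (0.997 each). Ptgir was closest to 3110062M04Rik (0.991) and Mmp19 (0.984), Ptges to Slc17a9 and Ugt1a7c (0.978 each), Ptger2 to Tmem41a and Rufy4 (0.996 each) and Ptger4 to Smim14 (0.960) and Ppp1r16b (0.958). Alox5 was closest to Siglecf and Gmpr (0.999 each), Ltc4s to Krt79 and Rufy4 (0.999 each) and Alox5ap to Taldo1 (0.998) and Arl11 (0.997).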

How the data were processed

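RNA was measured in 9 samples, 3 each of Ctrl-AM, Tumor-AM and Tumor-macrophage. The authors made full-length cDNA (SMART-Seq HT) and Nextera libraries, read 75 bases single-end, mapped them to mm10 and deposited FPKM, 1 value per gene symbol and sample. The submitters' processing notes name TopHat2 2.1.1, Bowtie2 and Cuffdiff 2.2.1; the annotation and the handling of multi-mapped reads are not given in the sources used here. FPKM removes transcript length and depth but not shifts in RNA composition.

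Values were analysed as log2(FPKM + 1), which understates changes of low genes. Genes with FPKM of at least 1 in at least 3 samples (10686 of 24346) entered limma 3.58.1 (R 4.3.3), whose prior variance followed mean expression, and all 9 samples shared 1 spread. Tests were two-sided, with Benjamini-Hochberg adjustment over all genes tested and a threshold of 0.05. The fit was tested on simulated data. Depth and read numbers were estimated from the grid of low FPKM values on GENCODE transcripts of GRCm38 (95.8% of symbols matched), and cover counting error only. Python 3.11.15 with pandas 2.3.3, numpy 2.4.6 and matplotlib 3.10.9 made summaries and plots.

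The members and lists were chosen with earlier results of these data known. All 10 members are named. Of 50 other pathway genes the rule named those past the threshold between Tumor-AM and Ctrl-AM and the 10 with the largest change between Tumor-macrophage and Tumor-AM at a mean of at least 5 FPKM in the higher group. Lta4h, Pla2g4a, Ptgis, Ptges2 and Ptges3 were added for their place in the pathways, after their values were seen. Pla2g15, Pla2g6, Pla2g12a, Pla2g2d, Dpep2 and Ggt5 were added to complete counts, also after their values were seen. The 2 most correlated genes were named per member. There were 18 alternative settings. They were a lower pseudocount (0.1), no filter, a filter of 5 FPKM, TPM, median-ratio and quantile scaling, a constant prior variance, a fit of only the compared groups, a block for the replicate number, and each of the 9 samples removed in turn.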

Additional observations from a re-analysis of the deposited data

Results flagged for a closer look

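Alox15 RNA appeared in TAM samples although it was below the filter and so outside every comparison. It was 0.238 FPKM in Tumor-macrophage 2 and 1.598 FPKM in Tumor-macrophage 3, about 6 and 44 reads, and 0 in Tumor-macrophage 1, while no Ctrl-AM sample exceeded 0.0971 FPKM, about 3 reads. The eosinophil markers summed to 0.739 FPKM in Tumor-macrophage 1, 0.718 FPKM in Tumor-macrophage 2 and 1.35 FPKM in Tumor-macrophage 3. The sample without Alox15 thus had an eosinophil sum slightly above that of Tumor-macrophage 2. In Tumor-macrophage 2 and 3, Prg2 was 0 and 1.14 FPKM and Epx was 0 in both. The part of eosinophil RNA in these values was not tested.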

How the results depend on the processing

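The counts of prostanoid and leukotriene genes past the threshold stayed within 1.5 times under all 18 alternatives: 2 to 3 higher and 0 lower in Tumor-AM against Ctrl-AM, 2 higher and 5 to 6 lower in Tumor-macrophage against Tumor-AM, and 2 to 3 higher and 5 to 6 lower in Tumor-macrophage against Ctrl-AM. Ptgs2 between the AM groups, and Ptgir and Ptger4 between Tumor-macrophage and Ctrl-AM, changed sides of the threshold under 4 alternatives each. Of all genes, 1100 passed in Tumor-AM against Ctrl-AM, and 535 to 1255 when single samples were left out, with 535 without Ctrl-AM 1, 682 without Ctrl-AM 2, 546 without Ctrl-AM 3 and 675 without Tumor-AM 3. In the same comparison, differences that passed under no setting changed sign for Ptger2 (0.0143 without Ctrl-AM 1, 0.0245 without Ctrl-AM 2, 0.00228 without Tumor-AM 1, range over single samples -0.146 to 0.0245) and for Alox5ap (-0.137 after rescaling to TPM, -0.0108 with median ratios, -0.0155 without Ctrl-AM 1, -0.0366 without Tumor-AM 3, range over single samples -0.0366 to 0.0282). TPM moved the median of all genes by -0.119, to -0.105 (Tumor-AM against Ctrl-AM), and by -0.204, to -0.212 (Tumor-macrophage against Ctrl-AM), with 468 higher and 837 lower, and 2133 higher and 4412 lower. Quantile normalization gave 607 higher and 446 lower between the AM groups. The cause was not tested. Same-numbered samples were not paired by the labels, and deviations from group means correlated at -0.0615 to 0.159, over 0.1 in 2 of 9 pairs. With the replicate number as a block 938, 5069 and 5772 genes passed in the 3 comparisons, and of the 9 genes the block changed the call of Ptger4 between Tumor-macrophage and Ctrl-AM only.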
